A study of Mus with 4 samples.

Results

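The integrated stress response lowers general translation when eIF2 is phosphorylated and, in the same cells, raises translation of ATF4, a transcription factor that switches on genes for amino acid supply, redox balance and, through CHOP, cell death. This account follows 10 genes of that pathway: Atf4 and Ddit3 (the gene of CHOP), and Atf3, Trib3, Chac1, Asns, Sesn2, Ppp1r15a, Psat1 and Slc7a11, which ATF4 or CHOP are known to induce. They were taken by gene symbol from the deposited signal table, with every probe of each gene, and are 10 of the 26893 gene symbols there. All 10 symbols matched the gene table of RefSeq (GRCm38.p6) through their Entrez identifiers.

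The experiment asked which genes respond to OASIS, encoded by Creb3l1, in podocytes, the epithelial cells of the glomerular filter. OASIS is a transcription factor of the endoplasmic reticulum (ER) membrane whose N-terminal part is released by cleavage and enters the nucleus. An immortalized murine podocyte cell line was differentiated at 37 °C for 10 to 14 days without interferon-γ and received a lentivirus that expresses either Venus, a fluorescent protein serving as control, or the active, N-terminal form of OASIS. Cells of both groups were with vector for 24 h, at a multiplicity of infection of 200 to 500 with polybrene at 8 μg/mL and 10% FBS, and total RNA was taken 48 h after the vector was added. Each group had 2 arrays, and since nothing in the labels says that the 2 samples of a group were separate cultures, p-values measure only the spread between these samples, which may be technical. The cells were of 1 immortalized line, the OASIS form was a fragment driven from a pCSII-EF vector and not the native protein, and no untreated cells were on the arrays.

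All 4 arrays were on 1 slide and came from 1 scan, so neither slide nor scan separated the groups. Between 33938 and 34418 spots per array were well above background and no spot was saturated. Correlations over the tested probes were 0.997 for the Venus pair, 0.995 for the OASIS pair and 0.973 to 0.978 across groups. Across genes, which are not independent replicates, these figures describe the arrays only. The only Creb3l1 probe read 0.71 and 0.72 with Venus and 0.61 and 0.49 with OASIS. Which part of the transcript that probe reads was not given in the sources used here, so it does not check the N-terminal construct. The study examined OASIS protein by immunoblot in podocytes given these vectors, at 48 h, and describes the cells as overexpressing OASIS. Among podocyte markers, 9 of 12 had a probe well above background on some array, and 8 could be tested. Tcf21 and Ptpro had no probe well above background on any array, and Nphs1 was too dim to be tested. Some transcripts that define mature podocytes were thus not detected, or too dim to test, at this sensitivity. Markers of other kidney and blood cells were also read: a probe was well above background on some array for 1 of 6 endothelial, 5 of 5 mesangial, 5 of 7 tubular and 5 of 6 leukocyte markers. Of those tested, Ren1, a mesangial-list gene, was 7.48-fold lower with OASIS (adjusted p = 0.00251) and Lrp2, a tubular one, 3.08-fold higher (adjusted p = 0.0148). Of the 8 tested podocyte markers 2 were higher and 0 lower past the threshold given below, beside 6.21% and 1.85% of all genes. These were Wt1, 24.6-fold higher (adjusted p = 0.00215), and Cd2ap, 2.13-fold higher (adjusted p = 0.00832). Wt1 was dim with Venus, at 16.9 and 25.2 units next to local backgrounds of 43.5 and 41. The mean log2 level of the 4 tested mesangial genes was 2.32 and 2.40 with Venus and 1.29 and 1.39 with OASIS. That of the 8 tested podocyte genes was -0.66 and -0.53 with Venus and 0.088 and 0.11 with OASIS. The part of such markers in the results was not tested.

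A value below is the log2 of a probe's processed intensity minus the 75th percentile of its array, so it compares 1 probe across arrays and cannot rank genes against each other. A gene is represented by its brightest tested probe, and every other probe of a member is given beside it. Of the 39 other pathway genes with several tested probes, 9 had probes that differed in sign. A gene passed the threshold, and is said to rise or fall, when it differed more than 2-fold between groups with an adjusted p under 0.1 in limma's moderated test, adjusted by Benjamini-Hochberg over all 31598 probes tested. Since RNA was measured in bulk, fewer cells with a transcript and less of it per cell cannot be told apart. With 2 arrays against 2, the smallest p an exact two-sided permutation test could give is 0.333, so the tests here rest on the spread limma pools over probes.

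The stress response genes did not rise in OASIS-expressing podocytes, and 2 of the 10 fell: Slc7a11, 2.61-fold, and Chac1, 2.15-fold. Both act on glutathione, the main thiol of the cell: Slc7a11 encodes the cystine importer that feeds its synthesis, and Chac1 an enzyme that degrades it. Atf4 and Ddit3, the genes of the 2 transcription factors that head the pathway, differed by less than 1.1-fold in their brightest probes and passed neither the fold nor the adjusted p. Of the remaining 6, Atf3, Trib3, Asns and Sesn2 were lower with OASIS and Psat1 higher at an adjusted p under 0.1, each by less than 2-fold, and Ppp1r15a did not pass either criterion.

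The count of members past the threshold was 2 lower and 0 higher of 10, beside 1.85% of all 16318 genes tested that were lower and 6.21% that were higher. By adjusted p alone, with no limit on the fold, 6 members were lower and 1 higher, beside 18.1% and 18.6% of all genes. In 8 members both OASIS arrays read below both Venus arrays and in 2 both read above, beside 39.4% and 31.5% of all genes. The median log2 fold change of the members was -0.39 and that of all genes tested -0.056. All 10 members had a probe that passed the filter on dim probes, through 14 of their 18 probes, and every tested probe was well above background on all 4 arrays.

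**Figure D1:**
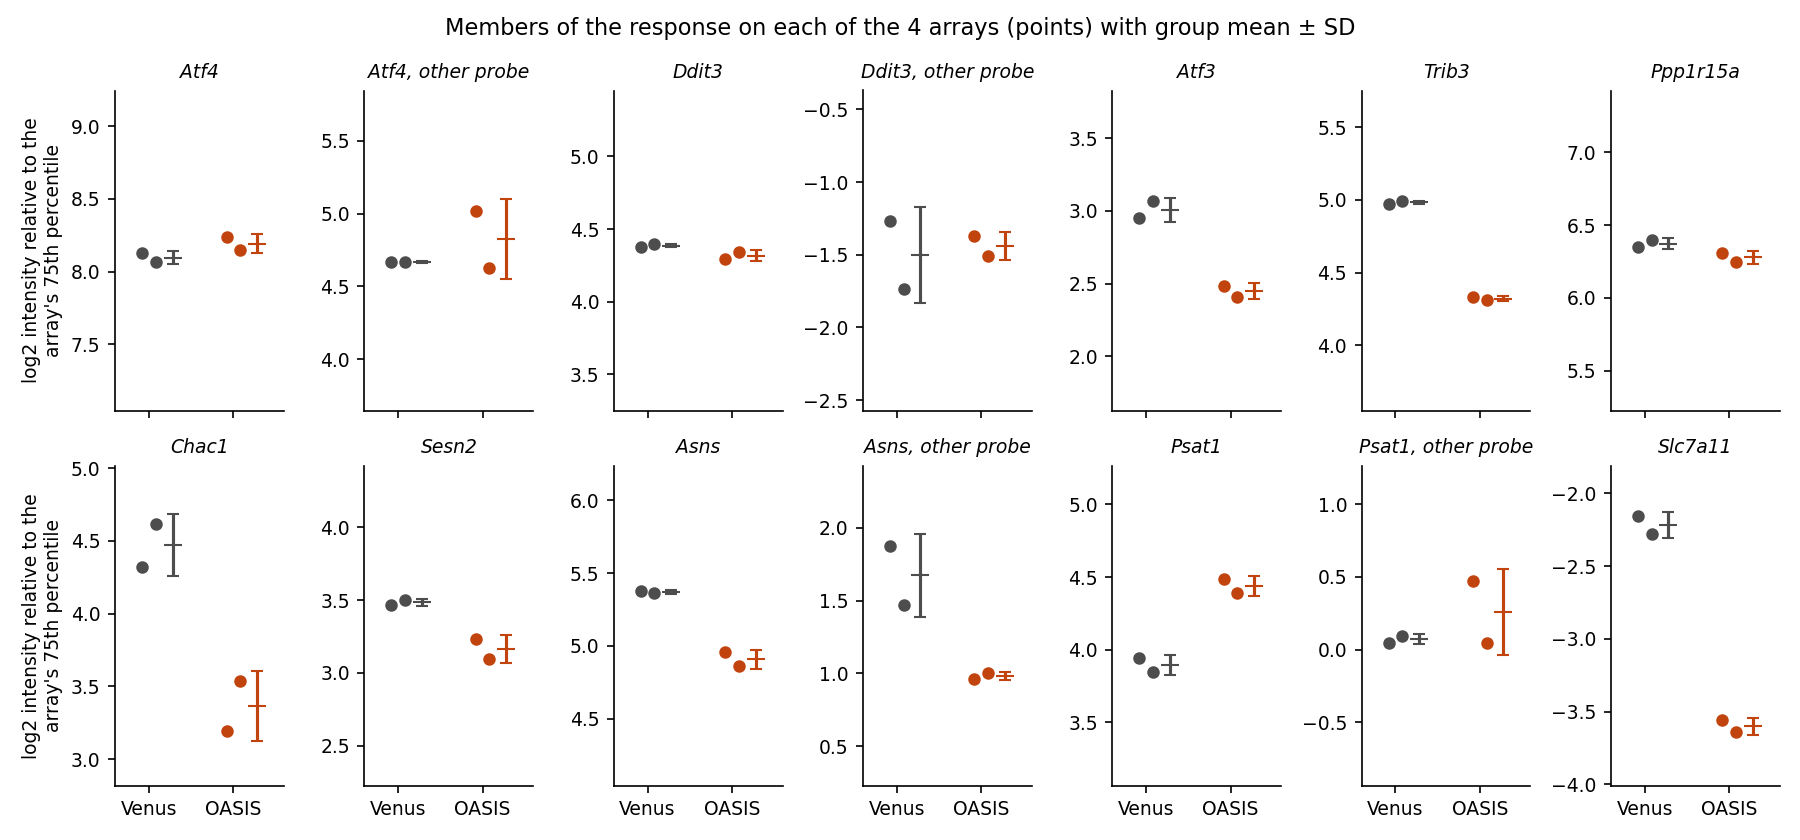
Normalized log2 intensity (y axis, relative to each array's 75th percentile, every panel spanning the same range) of the 14 tested member probes on the 2 Venus arrays (grey) and the 2 OASIS arrays (orange). Points are arrays and bars are the group mean ± SD; the OASIS points lie clear below the Venus points for Atf3, Trib3, Chac1, Sesn2, Asns and Slc7a11, above them for the brightest Psat1 probe, and close to them for Atf4, Ddit3 and Ppp1r15a.

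Atf4 encodes the factor at the head of the pathway. Its abundance as a protein is set largely by translation, which arrays do not read. Its brightest probe (chromosome 15, band qE1) read 8.13 and 8.07 with Venus and 8.24 and 8.15 with OASIS. The OASIS arrays were higher by a margin smaller than the difference between replicates. The log2 fold change was 0.096 (SE 0.10, 95% interval -0.18 to 0.37, adjusted p = 0.538). A further Atf4 probe read 4.67 and 4.67 with Venus and 5.02 and 4.63 with OASIS, so the groups overlapped and only the first OASIS array stood apart (log2 fold change 0.16, adjusted p = 0.515). The 95% intervals of the 2 probes reached up to 0.37 and 0.58 on the log2 scale, both short of 2-fold.

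Ddit3 encodes CHOP, a bZIP factor that ATF4 induces under lasting stress and that promotes cell death. Its brightest probe (chromosome 10, band qD3) read 4.38 and 4.39 with Venus and 4.29 and 4.34 with OASIS. The 4 arrays lay close together, with group SDs of 0.011 and 0.035. OASIS minus Venus was -0.069 on the log2 scale (SE 0.098, 95% interval -0.33 to 0.19, adjusted p = 0.645). The other Ddit3 probe was dimmer, at -1.27 and -1.74 with Venus and -1.37 and -1.51 with OASIS. Both OASIS values fell between the Venus values there, and the fold change had the opposite sign (0.064, adjusted p = 0.828).

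Atf3 is a further bZIP factor, induced by ATF4 and by many other stresses, that mostly represses its targets. It read 2.95 and 3.06 with Venus and 2.49 and 2.41 with OASIS (chromosome 1, band qH6). The groups did not overlap, and the gap between them was several times the difference between replicates. Atf3 differed by -0.56 log2 units (SE 0.11, 95% interval -0.84 to -0.28, adjusted p = 0.0285), a 1.47-fold lower level that did not reach the 2-fold limit. The adjusted p was 0.124 without Venus replicate 1 and 0.172 without Venus replicate 2.

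Trib3 encodes a pseudokinase that binds ATF4 and curbs its activity, and its transcript is a common reporter of the response. Its single probe (chromosome 2, band qG3) read 4.98 and 4.99 with Venus and 4.33 and 4.31 with OASIS. Replicates were nearly identical in both groups. Trib3 differed by -0.66 log2 units (SE 0.097, 95% interval -0.92 to -0.40, adjusted p = 0.0161), which is 1.58-fold lower. With either Venus array left out the adjusted p was just above the limit, at 0.104 and 0.101. The scanner software marked the local background of this spot as an outlier on all 4 arrays. That background was 36.5 to 45 intensity units, against a processed signal of 19200 units on the dimmest array.

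Ppp1r15a encodes GADD34, the phosphatase subunit that reverses eIF2 phosphorylation and so closes the loop. It read 6.35 and 6.40 with Venus and 6.31 and 6.25 with OASIS (chromosome 7, band qB4). The groups were separate by a margin no wider than the spread within them. The log2 fold change of -0.093 (SE 0.10, 95% interval -0.36 to 0.17, adjusted p = 0.538) did not pass.

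Among the genes of amino acid supply, Asns encodes asparagine synthetase. Its brightest probe (chromosome 6, band qA1) read 5.38 and 5.36 with Venus and 4.95 and 4.86 with OASIS. A dimmer probe of the same gene read 1.87 and 1.47 with Venus and 0.96 and 1.001 with OASIS. Both probes were lower on both OASIS arrays. Their log2 fold changes were -0.46 (SE 0.10, adjusted p = 0.0381) and -0.69 (SE 0.16, adjusted p = 0.0455), 1.38-fold and 1.61-fold lower. The adjusted p of the brightest probe was 0.215 without Venus replicate 1 and 0.191 without Venus replicate 2, and that of the dimmer probe 0.185 without Venus replicate 1 and 0.114 without OASIS replicate 1.

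Psat1 encodes phosphoserine aminotransferase, a step of serine synthesis, and was the only member with a higher level by adjusted p. Its brightest probe (chromosome 19, band qA) read 3.94 and 3.85 with Venus and 4.49 and 4.39 with OASIS. The log2 fold change was 0.54 (SE 0.11, 95% interval 0.26 to 0.82, adjusted p = 0.0302), which is 1.46-fold higher, and the adjusted p was 0.137 without Venus replicate 1 and 0.177 without Venus replicate 2. A dimmer probe did not repeat it: values of 0.047 and 0.096 with Venus faced 0.47 and 0.048 with OASIS, and the groups overlapped (log2 fold change 0.19, adjusted p = 0.464). The remaining Psat1 probe was not well above background on any array.

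Slc7a11 encodes xCT, the light chain of the cystine and glutamate exchanger. Of its 4 probes (chromosome 3, band qC) 1 could be tested, and it read -2.15 and -2.28 with Venus and -3.56 and -3.64 with OASIS. The gap between the groups was many times the difference between replicates. Slc7a11 had a log2 fold change of -1.39 (SE 0.11, 95% interval -1.67 to -1.10, adjusted p = 0.00562). This was a dim transcript: the processed signals were 208 and 203 units with Venus and 81.0 and 77.4 with OASIS, next to a local background of 32 to 42 units. With the normexp background correction, which here added 50 units to every spot, the change was -0.95, within the 2-fold limit. Its adjusted p there was 0.000439, the lowest of a range up to 0.0939 over 19 alternatives. An added constant shrinks the fold of dim spots, so this value cannot show what background correction alone does. The same holds for the normexp values of Batf2 and Adm2 below. None of the other 3 probes was tested: A_52_P368057 was well above background on 1 Venus array, and A_52_P298824 and A_55_P2730048 on no array.

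Chac1 encodes the γ-glutamylcyclotransferase that breaks down glutathione and is a target of ATF4, CHOP and ATF3. Its single probe (chromosome 2, band qE5) read 4.32 and 4.62 with Venus and 3.20 and 3.53 with OASIS. Replicates were further apart than for most members, yet the higher OASIS array lay well below the lower Venus array. Chac1 changed by -1.10 log2 units (SE 0.18, 95% interval -1.57 to -0.64, adjusted p = 0.0194). Without Venus replicate 2 it was -0.95 and without OASIS replicate 1 -0.93, both under 2-fold. The spot's local background carried an outlier mark on 3 arrays, at 39 to 44 units next to a lowest processed signal of 8753 units.

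Sesn2 encodes sestrin 2, a leucine sensor that restrains mTORC1. It read 3.47 and 3.50 with Venus and 3.23 and 3.09 with OASIS (chromosome 4, band qD2.3). The groups did not overlap. Its log2 fold change was -0.32 (SE 0.11, 95% interval -0.61 to -0.036), with an adjusted p of 0.0956 that lay just under the limit used here. It was 0.341 without Venus replicate 1, 0.37 without Venus replicate 2 and 0.188 without OASIS replicate 2.

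**Figure D2:**
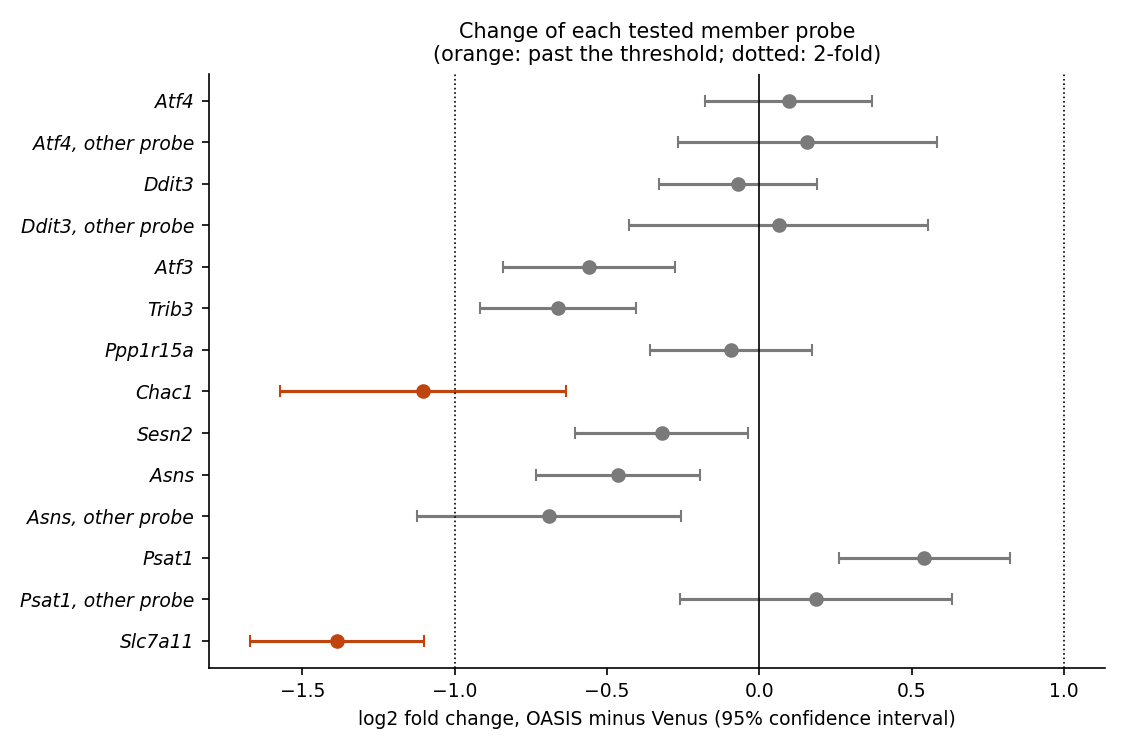
Log2 fold change (x axis, OASIS minus Venus) with 95% confidence interval for each of the 14 tested member probes. Orange marks the 2 past the threshold, Chac1 (-1.10) and Slc7a11 (-1.39), and dotted lines mark 2-fold; the intervals of both Atf4 and both Ddit3 probes cross 0, and the 2 Asns probes lie on the same side.

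The members share annotations that did not enter their choice, although the terms were picked after the values were seen. Atf4, Ddit3, Trib3 and Ppp1r15a carry the Gene Ontology term response to endoplasmic reticulum stress in the deposited table. None of these 4 passed the threshold. Beside 6.21% of all genes tested that rose and 1.85% that fell, 7 of the 65 tested genes of the term rose and 1 fell. Those that also belong to the lists described next were Xbp1, Dnajc3 and Eif2ak3, which rose, and Stc2, which fell. Atf4, Atf3 and Sesn2 carry cellular response to amino acid starvation, a term of 40 tested genes. Of these 3 rose and 2 fell, none of them a member, beside the same shares of all genes.

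Beyond the members, 87 further genes of the pathway were grouped by role into 7 lists, and 85 of them could be tested. Of these, 7 rose and 4 fell, and 74 did not pass, beside 6.21% of all genes tested that rose and 1.85% that fell. By adjusted p alone 17 were higher and 24 lower, beside 18.6% and 18.1% of all genes. The median log2 fold change was -0.19, and that of all genes tested -0.056. These shares and this median of all genes also stand beside the counts of each list below, the comparison lists included.

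The first group holds the eIF2 kinases and the factors they act on: of 15 genes 2 rose and 1 fell, with a median of 0.26. Eif2ak3 encodes PERK, the kinase that responds to unfolded protein in the ER. It read 1.12 and 1.23 with Venus and 2.38 and 2.32 with OASIS, a 2.26-fold rise (log2 fold change 1.18, SE 0.11, adjusted p = 0.00674). A dimmer Eif2ak3 probe gave 0.83 (adjusted p = 0.0249), under 2-fold, and it is the only value left when spots with a marked local background are dropped. Dnajc3 encodes p58IPK, an ER co-chaperone and inhibitor of PERK and PKR. It rose from -2.85 and -2.50 with Venus to -0.87 and -0.93 with OASIS, 3.43-fold (log2 fold change 1.78, adjusted p = 0.00645, or 0.106 in the methods' t-test).

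The other kinases did not pass. Eif2ak1, the heme-regulated kinase, had a log2 fold change of 0.26 (adjusted p = 0.272), and Eif2ak4, which encodes the amino acid sensor GCN2, of -0.23 (adjusted p = 0.254). Eif2ak2 encodes PKR, the kinase of double-stranded RNA and itself interferon-inducible. It read 0.98 and 1.27 with Venus and -0.025 and 0.49 with OASIS (log2 fold change -0.89, SE 0.22, adjusted p = 0.0487), 1.86-fold lower with uneven OASIS arrays. Without Venus replicate 2 the adjusted p was 0.159. The interferon-stimulated genes moved the same way: 13 of 18 fell, and their mean log2 level was 1.53 and 2.02 with Venus and -0.82 and 0.75 with OASIS. Their part in the Eif2ak2 result was not tested. The gene that fell in this group, Eif2s3x, encodes the γ subunit of eIF2. It read 2.36 and 2.08 with Venus and 1.29 and 1.01 with OASIS (log2 fold change -1.06, SE 0.16, adjusted p = 0.0173), and a near-identical Y-linked copy exists whose share in this signal was not tested. Without Venus replicate 1 and without OASIS replicate 2 the Eif2s3x change was -0.92, under 2-fold in both cases.

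Among 14 tested bZIP partners and other transcription factors, 2 rose and 1 fell, with a median of -0.13. Nupr1, a small stress-induced chromatin protein, read 3.62 and 3.998 with Venus and 6.83 and 6.56 with OASIS. That is a 7.38-fold rise (log2 fold change 2.88, SE 0.18, adjusted p = 0.00369). Batf2, an interferon-inducible bZIP factor, read -2.99 and -3.19 with Venus and -4.64 and -4.06 with OASIS, and fell 2.40-fold (adjusted p = 0.0236). Its change was -0.97 without OASIS replicate 1, the array with the lower interferon-stimulated level, and -0.57 with normexp, both under 2-fold. The part of the interferon-stimulated genes in the Batf2 result was not tested. Atf2 passed with its brightest probe (log2 fold change 1.15, adjusted p = 0.0138), but its other 2 tested probes were lower, at -0.62 and -0.68, and the mean over its probes was -0.050. Without OASIS replicate 2 the brightest probe was at 0.98, under 2-fold, and no direction can be given for this gene.

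Of 13 enzymes of serine, glycine, proline and 1-carbon metabolism 2 rose and 0 fell, with a median of 0.018. Aldh1l2, the mitochondrial enzyme that oxidises 10-formyltetrahydrofolate, read -3.27 and -3.19 with Venus and 0.46 and 0.42 with OASIS. All 3 of its probes rose, by log2 fold changes of 3.67, 3.53 and 2.95, and the brightest was 12.7-fold higher (adjusted p = 0.00147). Pycr1, which completes proline synthesis, read -2.08 and -2.05 with Venus and -0.44 and -0.56 with OASIS, a 2.97-fold rise (adjusted p = 0.00419). Of the 13 log2 fold changes 7 were positive and 6 negative.

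Of 8 tested amino acid transporters 1 rose, with a median of -0.24. Slc1a5, a glutamine carrier, read -0.26 and -0.11 with Venus and 1.33 and 1.02 with OASIS (log2 fold change 1.35, SE 0.15, adjusted p = 0.0094, or 0.116 in the methods' t-test). Its spot carried a background mark on all 4 arrays. Slc3a2, which encodes the heavy chain that pairs with xCT, was at -0.41 (adjusted p = 0.048) and did not pass. Its 3 tested probes spanned -0.58 to 0.026, so they differed in sign. None of 12 aminoacyl-tRNA synthetase genes passed. By brightest probe the largest change among them was that of Eprs (0.41, adjusted p = 0.0612), which ranged from 0.33 to 0.73 over 19 alternatives. Dimmer probes changed more: 1 of Eprs was at 0.73 (adjusted p = 0.0348) and 1 of Wars at -0.75, both under 2-fold. By adjusted p alone 1 synthetase was higher and 2 were lower, and the median was -0.19.

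Of 14 stress-induced effectors 2 fell and 0 rose, with a median of -0.29. Negative log2 fold changes were found in 12 of the 14, beside 9152 of all 16318 genes tested. Adm2, a secreted peptide hormone, read -4.93 and -5.10 with Venus and -6.08 and -6.55 with OASIS, where it was well above background on 1 of 2 arrays (log2 fold change -1.30, SE 0.19, adjusted p = 0.0159). With normexp it was at -0.29. Stc2, which encodes the secreted glycoprotein stanniocalcin 2, read 3.32 and 3.62 with Venus and 2.21 and 2.69 with OASIS (log2 fold change -1.02, SE 0.21, adjusted p = 0.0328). Stc2 lay at -0.87 without Venus replicate 2 and at -0.79 without OASIS replicate 1, under 2-fold. By brightest probe none of 9 death genes placed downstream of CHOP passed, with a median of -0.23. The largest change by that measure was that of Ero1l, an ER oxidase (0.68, adjusted p = 0.0208, or 0.128 without Venus replicate 1). A dimmer probe of Bcl2l11, which encodes the pro-apoptotic protein BIM, did pass: it read -0.68 and -0.79 with Venus and -2.84 and -3.12 with OASIS (log2 fold change -2.25, adjusted p = 0.00369). The brightest Bcl2l11 probe was at 0.14, so its probes disagree and no direction can be given.

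**Figure D3:**
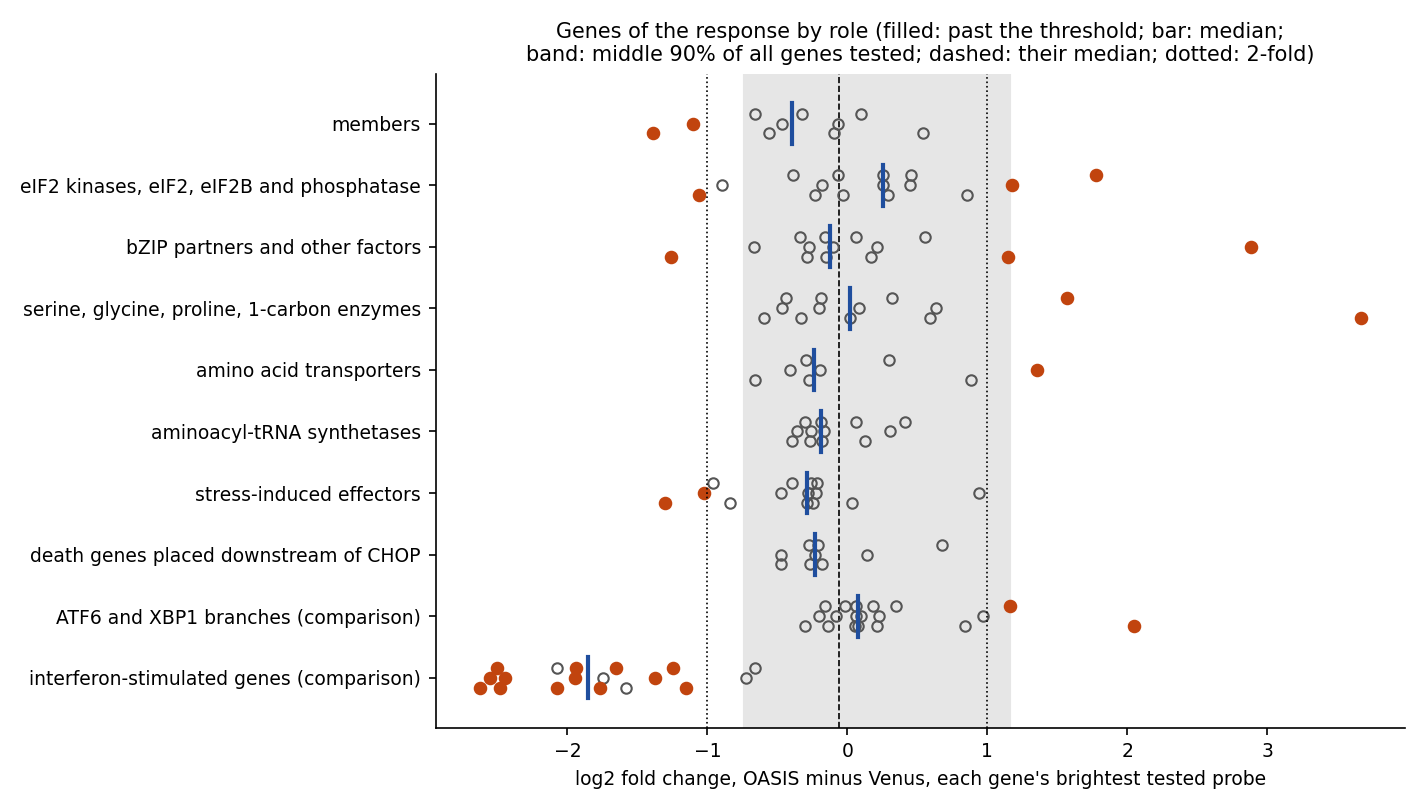
Log2 fold change (x axis, OASIS minus Venus, brightest tested probe) of each gene, grouped by role, with the members on top. Filled orange points passed the threshold, blue bars are list medians, and the grey band holds the middle 90% of all genes tested; the members have a median of -0.39 and no filled point on the right, while 13 of 18 interferon-stimulated genes are filled on the left.

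The other arms of the ER stress response were set beside the members as a comparison. Of 19 tested genes of the ATF6 and XBP1 branches 2 rose and 0 fell by brightest probe, with a median of 0.077. For another 2 genes a dimmer probe passed against the sign of the brightest: Dnajb9, at -1.09 against 0.077, and Edem1, at 1.14 against -0.31. Those that rose were Xbp1, the factor activated by IRE1 (log2 fold change 2.05, adjusted p = 0.00369), and Sec61b, a translocon subunit (1.17, adjusted p = 0.01). The brightest Sec61b spot carried a background mark on all 4 arrays, at 39.5 to 54 units next to a lowest processed signal of 30226 units. Both tested Sec61b probes passed. Hspa5, which encodes BiP, the main ER chaperone, was at 0.065 (adjusted p = 0.714). The difference between these lists and the members was not tested.

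Slc7a11 had the largest change among the members. Over the 4 arrays, with each gene's values centred on its Venus mean, the pathway genes nearest to it of the 85 tested were Adm2 (root mean square distance 0.15 log2 units), Eif2s3x (0.25) and Batf2 (0.25). These genes are the nearest in pattern over 4 arrays only. The distance was not scaled, so nearness mostly reflects a similar fold change, and that all 3 fell adds nothing to it. Adm2 was well above background on 1 of the 2 OASIS arrays and its change was -0.29 with normexp, so its rank rests on a dim probe.

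**Figure D4:**
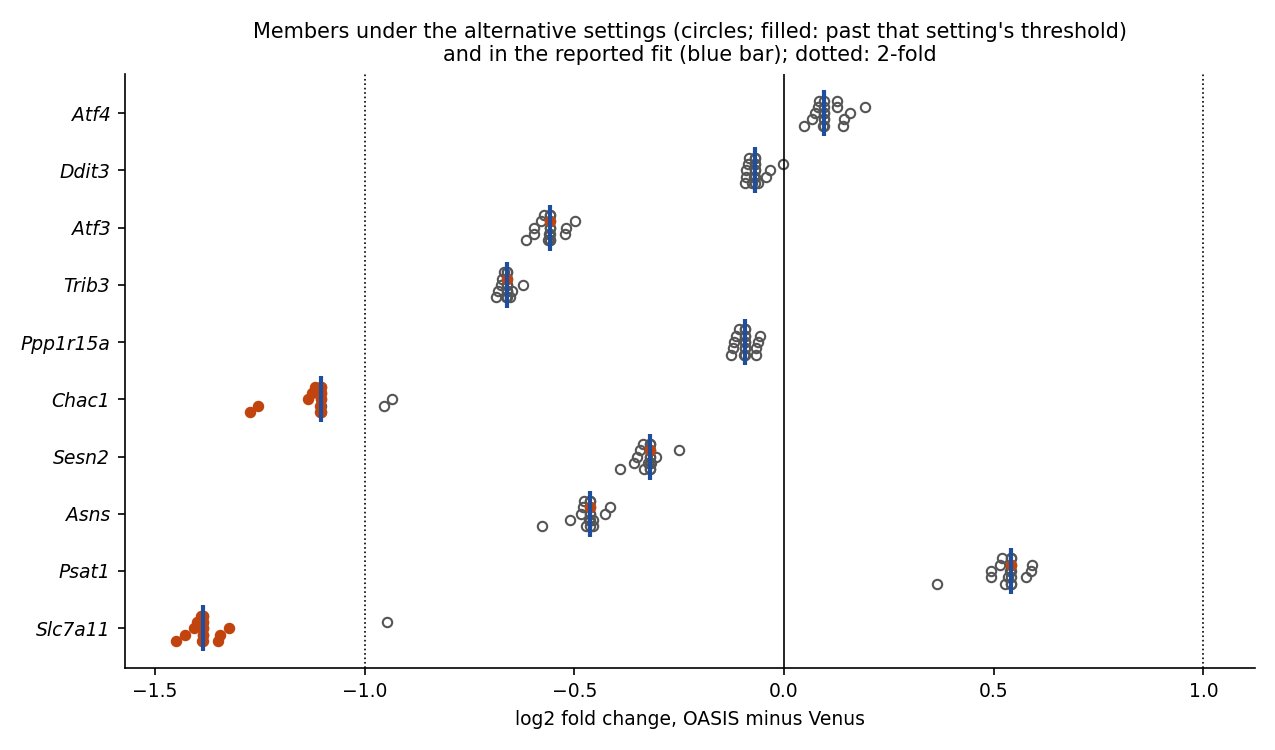
Log2 fold change of each member (x axis, OASIS minus Venus) in the reported fit (blue bar) and under up to 19 alternative settings (circles, filled where that setting's own threshold was passed). Every circle of a member lies on the same side of 0 as its bar, Slc7a11 drops within 2-fold under 1 setting (-0.95), and Chac1 under 2 (-0.95 and -0.93) besides missing the adjusted p with the methods' t-test.

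Across the alternatives, each member kept the direction of its brightest probe. These include the mean of a gene's probes and the probe of smallest p, which need not be the brightest. The mean of its probes gave the Ddit3 value nearest to 0. Atf4 ranged from 0.049 to 0.19, Ddit3 from -0.094 to -0.0026 and Ppp1r15a from -0.13 to -0.057, and none of them passed the threshold under any of 19 alternatives. Trib3 ranged from -0.69 to -0.62 and Atf3 from -0.62 to -0.50. Both passed only where no limit was set on the fold, as did Asns, Sesn2 and Psat1.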

How the data were processed

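Total RNA was labelled with Cy3 and hybridised to a SurePrint G3 Mouse GE v2 8x60K array, and the deposited intensities are the processed signal, spot and local background intensities of Agilent Feature Extraction 12.1.0.3. The authors' signal table holds the same intensities scaled by 1 constant per array, with a detection score that the authors deposited and that entered no test. Processed intensities were taken to log2, control and outlier spots removed, the 75th percentile of each array subtracted and spots of a probe averaged. Probes that were well above background on the 2 arrays of either group (31598 of 56605) were fitted with limma 3.58.1 (R 4.3.3, lmFit and eBayes), 2 OASIS against 2 Venus arrays, with the study's threshold of 2-fold and an adjusted p under 0.1. The fit was tested on simulated data. The members and lists were chosen with earlier results of these data known. From each list the text names up to 4 genes past the threshold with groups that do not overlap, or else the largest change, plus the members, the eIF2 kinases, Creb3l1 and Gapdh. Slc3a2, Wars, Bcl2l11, Xbp1, Sec61b, Dnajb9, Edem1, Hspa5, Ren1, Lrp2, Wt1 and Cd2ap were named after their values were seen. The number of arrays limits the precision. Alternatives varied normalization, background, filter, probe choice, test and arrays. Promoter sequences were not analysed here, and some items are not reported here.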

Additional observations from a re-analysis of the deposited data

How the results depend on the processing

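Of all genes tested 1014 were higher and 302 lower; of the members 0 were higher and 2 lower; of the other pathway genes 7 were higher and 4 lower. With normexp and its offset of 50 units, which shrinks the fold of dim spots, these counts were 652 and 137, 0 and 1 (Chac1), and 6 and 2. With the methods' t-test they were 334 and 66, 0 and 1 (Slc7a11, while Chac1 had an adjusted p of 0.154), and 4 and 0, with Dnajc3, Slc1a5, Atf2, Batf2, Eif2s3x, Adm2 and Stc2 no longer past it. With no limit on the fold they were 3043 and 2959, 1 and 6, and 17 and 24. With the probe of smallest p 553 genes were lower. Leaving out spots with a marked local background, an alternative added after the data were seen, left 1 member lower (Slc7a11, as Chac1 and Trib3 could not be tested) and 2 other pathway genes lower. Leaving out each array in turn gave 961 to 1106 genes higher, 234 to 478 lower (478 without OASIS replicate 2), 1 to 2 members lower, and 2 to 4 other pathway genes lower.

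Gapdh, at -0.015, reversed to 0.011 with the mean of its probes, 0.13 with the probe of smallest p, 0.0016 without Venus replicate 2, 0.12 without OASIS replicate 2 and 0.021 without marked spots, and ranged from -0.15 to 0.12 as arrays were left out. Atf2 reversed to -0.050 with the mean of its probes. The dimmer Ddit3 probe reversed to -0.17 without Venus replicate 2 and -0.0030 without OASIS replicate 1, where the dimmer Atf4 and Psat1 probes reversed to -0.038 and -0.024. Their highest values as arrays were left out were 0.30 (Ddit3), 0.35 (Atf4) and 0.40 (Psat1). The cause was not tested.

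With the replicate block, 1018 genes were higher and 327 lower, 0 members higher and 2 lower, and 7 other pathway genes higher and 4 lower. The number only names the samples: the difference between replicates 1 and 2 correlated at 0.259 between the groups over the probes tested, with 2 pairs. A slide block was not run, since there was 1 slide. The precision rests on 2 arrays a group, and Slc7a11 with OASIS (81.0 and 77.4 units) lay near its local background (38 and 32 units). Scaling moved the median of all genes by under 0.1 on the log2 scale.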
